A study of Mus musculus with 6 samples.

Results

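Amino acid transporter genes were followed in cells sorted from mouse gliomas. They were taken by their names: a probe set of the array counted where its annotation held exactly 1 gene symbol and that symbol began with Slc1a, Slc3a, Slc6a, Slc7a, Slc36a, Slc38a or Slc43a and a number. This gave 68 probe sets of 64 genes, out of 22180 genes measured, and each of the 4 genes with several probe sets was represented by its brightest one over the 6 arrays. The name rule also took 3 genes that are named only as lying opposite a transporter (Slc6a19os, Slc7a6os and Slc36a1os), and it took carriers whose cargo is not an amino acid used for protein synthesis, such as taurine, creatine, neurotransmitters and nucleobases. The glycine carrier Slc6a9 shared its probe set with a second symbol and was therefore not taken.

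The arrays held RNA of cells labelled tumor-associated endothelial cells, which had been pulled out of gliomas with magnetic beads that bind CD105, or endoglin, encoded by Eng, and kept for 12 h in glioma-conditioned medium. Each of the 6 arrays came from 1 mouse. The Tie2-Cre group was Tie2-Cre,Pfn1fl/fl:Y129F (mice 1, 3 and 4), and the no Cre group was Pfn1fl/fl:Y129F (mice 6, 7 and 10). Both groups thus carried floxed Pfn1 alleles and the Y129F form of profilin-1, an actin-binding protein, and Tie2-Cre was what the labels gave as the difference. Tie2 promoters drive Cre in endothelial cells and also in some blood cells. Age, sex and the number of tumors per mouse are not given in the sources used here.

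Amino acids cross membranes on carriers of a few families. Slc7 light chains work as exchangers and most need a heavy chain of the Slc3 family to reach the cell surface, so that the pair, not the light chain alone, makes the transporter. Slc1, Slc6 and Slc38 carriers couple transport to sodium, which lets them load the cell, and some Slc36 carriers move amino acids with protons, partly out of lysosomes. In endothelium these carriers supply the cell itself and, at the blood-brain barrier, the brain. When amino acids run short, the transcription factor ATF4 raises many of these genes through a short promoter element that C/EBP and ATF proteins bind.

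Values are log2 of RMA intensities, each change is the mean with Tie2-Cre minus the mean without Cre on that scale, and a gene was called where its limma p, adjusted by Benjamini-Hochberg over all 22180 genes, lay under 0.05. Probe sets differ in brightness, so a higher signal of one gene than of another is an order of signals and not of RNA amounts. Arrays of a group correlated with r of 0.994 to 0.996 across genes and arrays of different groups with 0.986 to 0.988. Pfn1 itself changed by 0.04 (SE 0.062, limma adjusted p 0.776; exact two-sided permutation p = 0.1, the smallest that 3 mice against 3 allow). Sex-linked genes parted the groups: Xist read 5.36 to 6.06 in Tie2-Cre arrays and 11.16 to 11.44 in no Cre arrays, and Y-linked Eif2s3y 8.78 to 8.86 in Tie2-Cre arrays and 4.59 to 4.85 in no Cre arrays. Genotype and sex therefore cannot be told apart in any result here. Of the 15 endothelial markers, 1 was higher (Flt1, 1.11), 1 was lower (Eng, -0.30), and their mean level was 6.69 to 6.83 with Tie2-Cre and 6.71 to 6.73 without Cre. Their lowest mean signals were 4.27 for Emcn, an endothelial sialomucin, and 5.79 for Tek, which encodes Tie2. The highest were 8.12 for Flt1 and 11.91 for Eng, the gene of the sorted protein. Only Emcn was under 5.62, the highest signal of a Y-linked gene in a no Cre array. A signal above that bound does not show that a marker was expressed. The median signal was 6.23 over the endothelial list, 6.21 over the neutrophil list and 7.12 over all genes. Of 10 fibroblast markers, 4 were higher and 1 lower (from Dcn, -0.76, to Dpt, 3.54), with a mean level of 10.00 to 10.12 with Tie2-Cre and 9.41 to 9.46 without Cre. Of 10 pericyte and smooth muscle markers, 5 were higher and 0 lower (from Des, -0.10, to Rgs5, 1.45), at 10.00 to 10.37 with Tie2-Cre and 9.60 to 9.64 without Cre. Of 11 mesothelial and epithelial markers, 3 were lower and 0 higher (from Upk1b, -3.29, to Wt1, 0.09), at 6.56 to 6.74 with Tie2-Cre and 7.06 to 7.16 without Cre. Of 10 blood-brain barrier genes, 4 were lower and 0 higher (from Slc16a1, -0.84, to Mfsd2a, 0.09), and of 14 macrophage markers, 1 was higher and 2 lower (from Cd68, -0.99, to Tmem119, 0.65), at 6.67 to 6.75 with Tie2-Cre and 6.75 to 6.81 without Cre. Among 10 astrocyte and glioma markers 2 were higher and 2 lower (Slc4a4, -1.32, to Nes, 0.59), among 8 neuronal markers 1 was higher (Stmn2, -0.18, to Tubb3, 1.06) and among 8 neutrophil markers 1 was lower (S100a8, -0.55, to S100a9, 0.15), while 0 were called of 8 T and NK cell (Cd3g, -0.18, to Cd8a, 0.22), 7 oligodendrocyte (Mbp, -0.14, to Mag, 0.08) and 1 red blood cell markers (Slc4a1, 0.10). Of all genes 12.0% were called, and of those with a mean log2 of at least 8, 21.8%. The fibroblast and the pericyte and smooth muscle lists, with median signals of 10.30 and 9.62, lay above the second share. Above the first were blood-brain barrier (40.0%), astrocyte and glioma (40.0%), mesothelial and epithelial (27.3%) and macrophage markers (21.4%). Endothelial (13.3%), neutrophil (12.5%) and neuronal markers (12.5%) were near it. No share was tested. The part of these cell types in the changes of the transporters was not tested. Fewer cells of a type and less RNA per cell cannot be told apart in such bulk samples.

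With Tie2-Cre, the cystine carrier gene Slc7a11 and 5 other amino acid transporter genes fell, and the taurine carrier gene Slc6a6, the heavy chain gene Slc3a2 and 5 others rose. Of the 64 genes, 13 (20.3%) were called, against 12.0% of all genes tested. The 7 higher were 10.9% of the members, against 4.78% of all genes, and the 6 lower were 9.38%, against 7.17% of all genes. The 3 arrays of a group lay wholly above or below the 3 of the other in 21 members (32.8%), against 31.0% of all genes. In 14 of these the Tie2-Cre arrays were the higher ones (21.9%, against 13.6% of all genes), and in 7 they were the lower ones (10.9%, against 17.5% of all genes). The median change over the members was 0.03, and over all genes -0.0042.

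Changes were mostly small. In 5 of the 13 called genes, Slc7a11, Slc38a1, Slc43a3, Slc6a6 and Slc1a6, the change exceeded 1.5-fold, and only Slc7a11 exceeded 2-fold. The median absolute change was 0.56 over the called members and 0.47 over all called genes. Among the 51 members that were not called, changes ran from -0.27 (Slc7a13) to 0.42 (Slc1a4), and for 43 of them the 95% confidence interval lay within 0.5 of 0. The spread within a group was like that of other genes, with a median SD over members of 0.119 with Tie2-Cre and 0.0915 without Cre, against 0.102 and 0.0892 over all genes. All 64 genes were tested, with no filter on low values, but 6 of them (Slc7a12, Slc6a14, Slc6a15, Slc36a3, Slc36a1os and Slc1a3) had means no higher than the 5.62 that a Y-linked gene reached in an array without Cre.

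**Figure D1:**
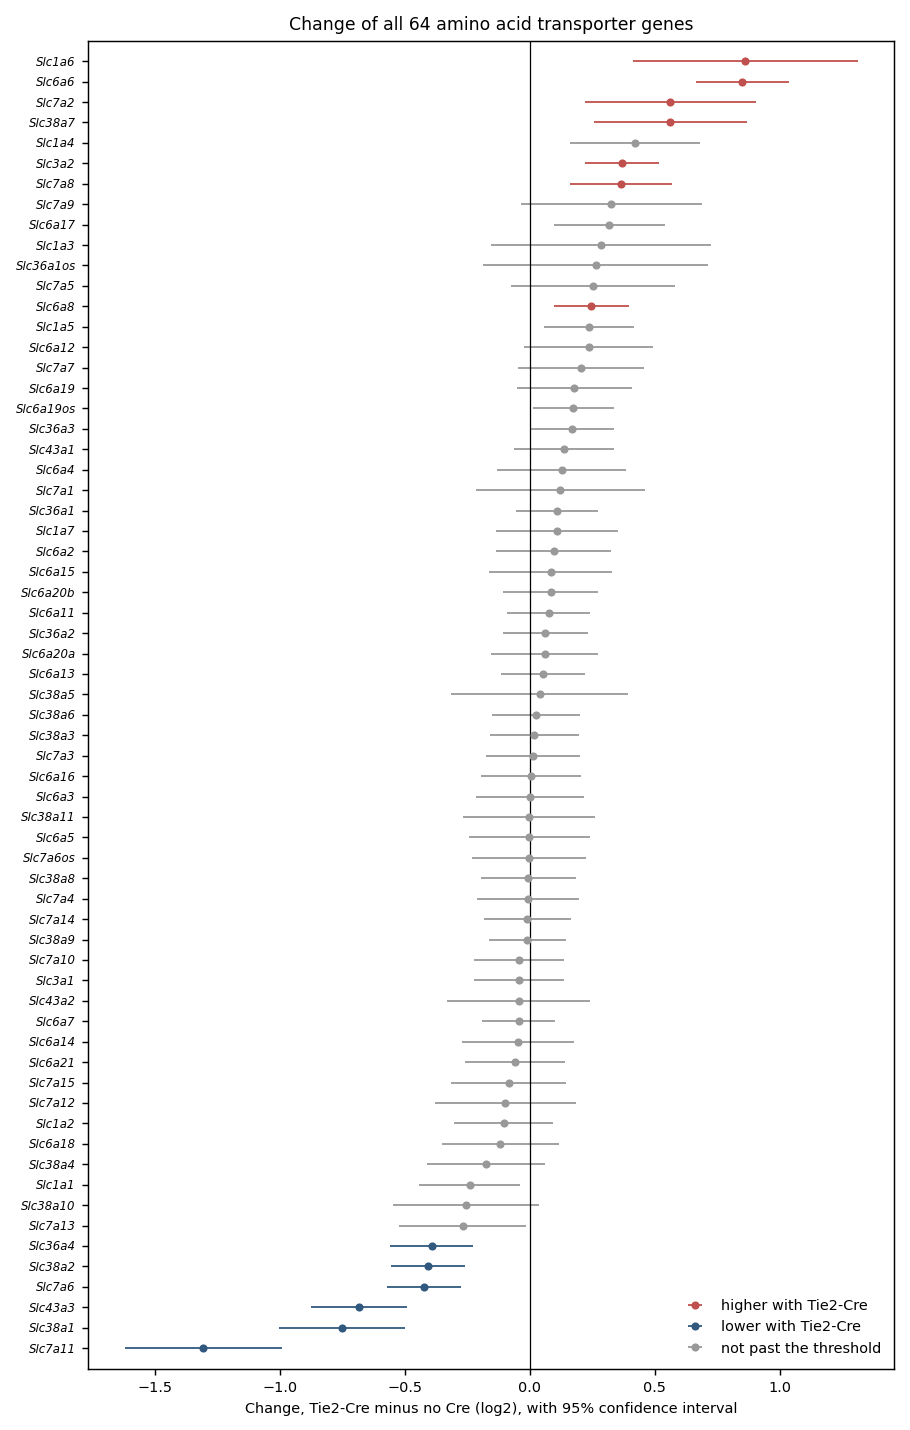
Change of each of the 64 genes between Tie2-Cre and no Cre cells (log2, x axis), in order of size, with the 95% confidence interval of the limma fit as a bar. Red points are the 7 genes called higher, blue points the 6 called lower and grey points the 51 not called; Slc7a11 stands farthest out, at -1.31, and the grey points run from -0.27 to 0.42.

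The falls depended less on single mice than the rises did. All 6 lower calls held when any 1 of the mice was left out. Of the 7 higher calls 2 to 4 held, and only those of Slc6a6 and Slc3a2 did so in all 6 cases; the counts of higher genes were 2 without mouse 3, 2 without mouse 6 and 3 without mouse 7. Other settings cut the counts too: with the mean of the macrophage markers as a covariate, 1 gene was higher (Slc6a6, adjusted p 0.0305) and 1 lower (Slc7a11, adjusted p 0.0438), and with the probe sets that lack a single symbol added to the test, 2 were higher and 6 lower.

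**Figure D2:**
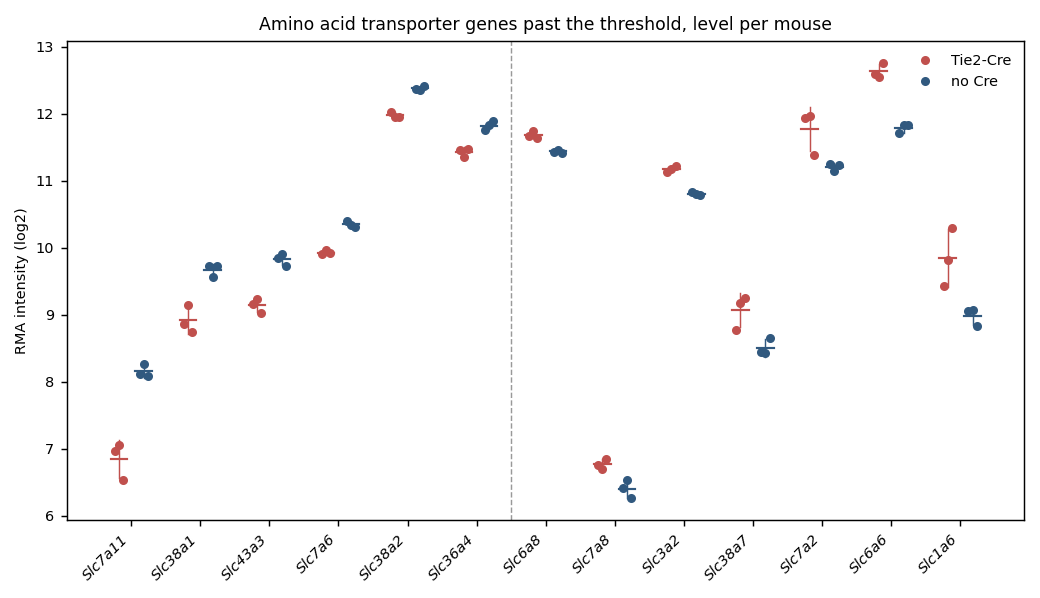
Level of each called gene in each mouse (RMA intensity, log2, y axis), with lower genes left of the dashed line and higher genes right of it. Points are single mice, red with Tie2-Cre and blue without Cre, and lines give the mean and SD (n = 3 mice); in none of the 13 genes do the groups overlap, and Slc1a6, from 9.42 to 10.29 with Tie2-Cre, is the most spread within a group.

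With the brightest probe set per gene, the cystine-glutamate exchanger had the largest change of the transporter genes. Its light chain xCT is the product of Slc7a11, which takes up cystine, the source of cysteine for glutathione, in exchange for glutamate. Slc7a11 had 6.97, 7.05 and 6.53 in Tie2-Cre mice 1, 3 and 4, against 8.11, 8.27 and 8.09 in no Cre mice 6, 7 and 10. All Tie2-Cre arrays were below all no Cre arrays, with mouse 4 the lowest, and the means were 6.85 ± 0.282 with Tie2-Cre and 8.16 ± 0.0948 without Cre (SD, n = 3 mice each). The change was -1.31 (SE 0.136, 95% interval -1.62 to -0.99), 2.47-fold lower, with a limma adjusted p of 0.000849. A second, dim probe set of the gene had 4.33, 4.31 and 4.42 with Tie2-Cre, against 4.57, 4.56 and 4.44 without Cre, a difference of -0.17. With the mean of both probe sets Slc7a11 was still called (adjusted p 0.00107), but its change was -0.74, smaller in size than those of Slc1a6 (0.86), Slc6a6 (0.85) and Slc38a1 (-0.75). With single mice left out the change of the brighter probe set was between -1.41 and -1.15.

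Slc7a11 is a known ATF4 target, and its promoter shows the element in duplicate. The C/EBP-ATF response element was searched as TGATGNAA on both strands in RefSeq promoter windows of GRCm38.p6, each reaching from 250 bases before to 50 bases after an annotated start. Such windows were given for 47 of the 64 genes (66 windows), among them 8 of the 13 called ones. The element stood in 5 of the 66 windows (7.58%), belonging to Slc7a11, Slc1a4, Slc7a7 and Slc6a21, against 1304 of all 32851 windows (3.97%). Among called genes it was found in 0 of 4 windows of higher and in 1 of 5 windows of lower genes, which was that of Slc7a11. The stretches that follow, read from 5′ to 3′ on the gene's strand with the matches in capitals, set the pair of matches of Slc7a11 (chr3:50443627-50443705, minus strand) beside 1 of the 2 matches of Slc7a7 (chr14:54418052-54418111, minus strand) and the single one of Slc6a21 (chr7:45282819-45282872, plus strand), both not called. The other match of Slc7a7 runs across the same annotated start and is not shown.
Slc7a11: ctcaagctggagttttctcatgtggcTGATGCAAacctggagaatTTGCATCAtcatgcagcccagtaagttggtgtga
Slc7a7: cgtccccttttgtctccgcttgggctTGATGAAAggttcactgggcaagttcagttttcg
Slc6a21: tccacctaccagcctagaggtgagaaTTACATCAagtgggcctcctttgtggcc
In Slc7a11 the matches begin 66 and 47 bases before the start, lie 11 bases apart and face each other on opposite strands. A match is a run of letters and was not tested as a binding site.

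The heavy chain moved the other way. Slc3a2 encodes CD98hc, the partner of most light chains, xCT among them. Its level was 11.13, 11.17 and 11.22 with Tie2-Cre, against 10.82, 10.81 and 10.79 without Cre. The arrays of each group lay close together, the groups did not overlap, and the change was 0.37 (SE 0.063, limma adjusted p 0.00827). The other heavy chain, Slc3a1 (rBAT), which serves kidney and gut carriers, had a change of -0.04 (adjusted p 0.802).

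Of the 10 light chain genes, 1 rose, 2 fell and 7 were not called, with a median change of -0.06. The share called was 30.0%, against 12.0% of all genes. Slc7a6, the exchanger y+LAT2 of cationic for neutral amino acids, had 9.91, 9.97 and 9.91 with Tie2-Cre, against 10.40, 10.34 and 10.32 without Cre. The gap between its groups was wider than the range within either, with a change of -0.42 (SE 0.064, adjusted p 0.0047). Slc7a8, the neutral exchanger LAT2, had 6.75, 6.70 and 6.85 with Tie2-Cre, against 6.41, 6.53 and 6.27 without Cre. It rose by 0.36 (SE 0.088, adjusted p 0.0332), but the call stood with only 1 of the 6 mice left out, no Cre mouse 7, and the adjusted p was 0.0571 to 0.102 in the other cases. Slc7a5 (LAT1), the main carrier of leucine and other large neutral amino acids across the blood-brain barrier, had 9.73, 9.74 and 10.27 with Tie2-Cre, against 9.65, 9.62 and 9.72 without Cre. The Tie2-Cre arrays were all above the others, by little in mice 1 and 3 and by more in mouse 4, and the change of 0.25 was not called (adjusted p 0.331, 95% interval -0.08 to 0.58). Slc7a7, the y+LAT1 exchanger of the same kind as Slc7a6, differed by 0.21 (adjusted p 0.301), and Slc7a13, a kidney aspartate and glutamate carrier, by -0.27 (adjusted p 0.177).

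Carriers of arginine and lysine (the cationic CAT family) gave 1 rise among 5 genes (20.0% called, against 12.0% of all genes). Slc7a2, which encodes CAT2, the arginine carrier that macrophages and other cells raise in inflammation, had 11.94, 11.97 and 11.39 with Tie2-Cre, against 11.25, 11.14 and 11.23 without Cre. Tie2-Cre mouse 4 lay near the no Cre arrays and the other Tie2-Cre mice clearly above them. The change was 0.56 (SE 0.149, adjusted p 0.0472), and it was called only without Tie2-Cre mouse 4 (adjusted p 0.00163) when mice were left out, with 0.0992 to 0.142 in the other cases. Slc7a1, the constitutive carrier CAT1, had 8.94, 8.95 and 9.50 with Tie2-Cre, against 9.03, 9.06 and 8.94 without Cre. Here mouse 4 alone stood high, and the change of 0.12 (adjusted p 0.685) turned to -0.06 without it. Slc7a3, Slc7a4 and Slc7a14 changed by -0.01 to 0.01, with adjusted p of 0.949 to 0.977.

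Sodium-coupled neutral carriers of the Slc38 family, which move glutamine, alanine and other small neutral amino acids, had 2 lower, 1 higher and 8 uncalled genes. The share called in the family was 27.3%, against 12.0% of all genes. Slc38a1 encodes SNAT1, a surface glutamine carrier. Its level was 8.87, 9.15 and 8.75 with Tie2-Cre, against 9.72, 9.57 and 9.72 without Cre. The groups did not overlap and the change was -0.75 (SE 0.109, adjusted p 0.0039), 1.68-fold lower. Slc38a2 encodes SNAT2, which cells raise when amino acids are scarce, and had 12.02, 11.95 and 11.95 with Tie2-Cre, against 12.37, 12.36 and 12.42 without Cre. Its arrays were close together within each group, and it fell by 0.41 on the log2 scale (SE 0.065, adjusted p 0.00564). Both genes are neighbours on chromosome 15, followed by Slc38a4, whose change of -0.18 was not called (adjusted p 0.35). Slc38a7 (SNAT7), which exports glutamine and asparagine from lysosomes, had 8.77, 9.18 and 9.25 with Tie2-Cre, against 8.44, 8.42 and 8.66 without Cre. Tie2-Cre mouse 1 came close to no Cre mouse 10 and the rest stood apart. It rose by 0.56 (SE 0.133, adjusted p 0.031), with adjusted p of 0.0866 to 0.103 when mouse 3, 4, 6 or 7 was left out. Slc38a9, the lysosomal arginine sensor of the mTORC1 pathway, changed by -0.01 (95% interval -0.17 to 0.14), and Slc38a10, a less studied member whose 2 probe sets differed by -0.26 and -0.23, was not called (adjusted p 0.262).

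In the Slc1 family, 5 members carry glutamate and aspartate and a pair, the ASC exchangers, carry small neutral amino acids. Of the 7 genes 1 was higher and 0 lower (14.3% called, near the 12.0% of all genes), with a median change of 0.24. The glutamate carrier EAAT4 is encoded by Slc1a6 and is best known from Purkinje neurons. Slc1a6 had 9.42, 9.82 and 10.29 with Tie2-Cre, against 9.05, 9.06 and 8.83 without Cre. The Tie2-Cre arrays were all higher but spread over 0.86, the widest range of any member within that group. The change was 0.86 (SE 0.195, adjusted p 0.0259), 1.82-fold higher, and the call did not hold when mouse 3 was left out (adjusted p 0.0717), nor when mouse 6, 7 or 10 was (0.0597, 0.065 and 0.0919). Slc1a4, the exchanger ASCT1 for serine, alanine and cysteine, had 9.33, 9.40 and 9.76 with Tie2-Cre, against 9.08, 9.10 and 9.04 without Cre. All its Tie2-Cre arrays were above the others, and the change of 0.42 (SE 0.113) lay just beyond the threshold, with an adjusted p of 0.0501 that ranged from 0.0147 to 0.565 over the alternatives. Slc1a5, the glutamine exchanger ASCT2, had 9.78, 9.57 and 9.66 with Tie2-Cre, against 9.38, 9.44 and 9.49 without Cre, also without overlap, for a change of 0.24 that was not called (adjusted p 0.1). Its second probe set differed by -0.12. Slc1a1, the neuronal and epithelial glutamate carrier EAAT3, differed by -0.24 (adjusted p 0.128), and the glial carrier Slc1a2 by -0.11 (adjusted p 0.517).

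Of the Slc6 carriers, both called genes move no protein amino acid. Slc6a6 encodes the taurine carrier TauT, through which cells take up this osmolyte. It had 12.59, 12.55 and 12.76 with Tie2-Cre, against 11.71, 11.82 and 11.83 without Cre. Even the lowest Tie2-Cre array was well above the highest no Cre array, and the change was 0.85 (SE 0.081, adjusted p 0.000575), 1.80-fold higher. Slc6a8, the creatine carrier and an X-linked gene, had 11.67, 11.74 and 11.64 with Tie2-Cre, against 11.43, 11.46 and 11.42 without Cre. The groups lay apart but by little, and the rise of 0.25 (SE 0.065, adjusted p 0.0459) was not called with any 1 mouse left out (0.0685 to 0.134). Of the 9 measured genes for transmitters, osmolytes and creatine, these were the 2 higher and 0 were lower (22.2% called, against 12.0% of all genes). The betaine carrier Slc6a12 followed with 0.24 (adjusted p 0.245).

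Among the 9 measured amino acid carriers of the Slc6 family, 0 genes were called by limma (against 12.0% of all genes), and 1 had an unadjusted p under 0.05. It was Slc6a17, a carrier of neutral amino acids into synaptic vesicles, with 8.11, 7.92 and 7.77 with Tie2-Cre, against 7.55, 7.63 and 7.67 without Cre. Its groups did not overlap, with a change of 0.32 (SE 0.096, adjusted p 0.0757), which was called without Tie2-Cre mouse 4 (adjusted p 0.0355). The kidney and gut carriers Slc6a18 and Slc6a19, neighbours on chromosome 13, differed by -0.12 and 0.18, and Slc6a19os, an RNA gene named as lying opposite Slc6a19, by 0.17 (adjusted p 0.169).

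The Slc36 and Slc43 families had 1 lower gene each and 0 higher. These were 25.0% of 4 Slc36 genes and 33.3% of 3 Slc43 genes, against 12.0% of all genes called. Slc36a4 encodes PAT4, a carrier with high affinity for tryptophan and proline. It had 11.46, 11.35 and 11.48 with Tie2-Cre, against 11.75, 11.83 and 11.89 without Cre. The groups were clearly apart and the gene fell by 0.39 on the log2 scale (SE 0.072, adjusted p 0.0109). Its second probe set differed by -0.06, and with the mean of both the change was -0.22 and no longer called (adjusted p 0.059). Slc36a1, the lysosomal carrier PAT1, was not called (0.11, adjusted p 0.408).

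Slc43a3 belongs to a family of neutral amino acid carriers by sequence but moves purine nucleobases. It had 9.16, 9.24 and 9.03 with Tie2-Cre, against 9.84, 9.90 and 9.73 without Cre. The gap between the groups was wider than the range within either, with a change of -0.68 (SE 0.083, adjusted p 0.00165), 1.61-fold lower. The leucine carriers of the family, Slc43a1 (LAT3) and Slc43a2 (LAT4), changed by 0.14 (adjusted p 0.398) and -0.04 (adjusted p 0.877).

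**Figure D3:**
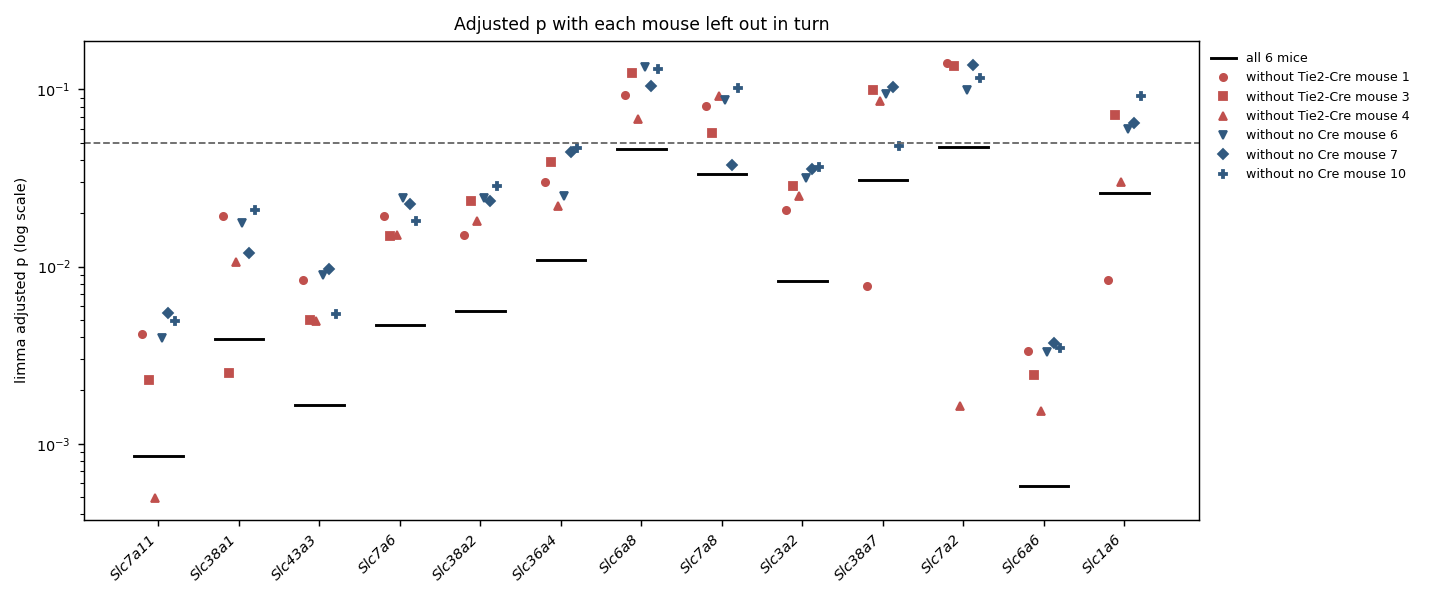
Adjusted p (log scale, y axis) of each called gene with all 6 mice (black bar) and with each mouse left out (red symbols, Tie2-Cre mice; blue symbols, no Cre mice), with the threshold of 0.05 as a dashed line. The symbols of the 6 lower genes, of Slc3a2 and of Slc6a6 all lie under the line, and all those of Slc6a8 lie above it.

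Bright genes were called more often than dim ones, for a reason that was not tested. Split at a mean log2 of 8, a limit chosen after the values were seen, 6 of 21 brighter members were higher and 5 lower (52.4%), against 21.8% of all genes as bright. Of the 43 dimmer members 1 was higher and 1 lower (4.65%), against 6.68% of all genes as dim. The 6 members with the highest mean signal, Slc6a6, Slc38a2, Slc36a4, Slc6a8, Slc7a2 and Slc3a2, were all called, 4 of them higher and 2 lower. On the X chromosome lay 4 members (Slc6a8, Slc6a14, Slc38a5 and Slc7a3), of which 1 was called, and a fit on autosomal genes alone kept 6 lower and gave 7 higher among 60 members, Slc1a4 being the added one (adjusted p 0.0494).

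Genes that use or sense what the carriers bring in were read from 8 lists, chosen with earlier results of these data known. Their median signals ran from 7.32 (other carriers) to 10.09 (tRNA synthetases). Of all genes with a mean log2 of at least 8, 21.8% were called. The glutathione and cystine list had 5 lower and 1 higher gene among 15 (40.0%, against the 12.0% of all genes; median change -0.16). Hmox1 (heme oxygenase, -1.40, SE 0.087) and Nqo1 (a quinone reductase, -1.13, SE 0.105), both known like Slc7a11 as NRF2 targets, fell furthest. Nqo1 had 9.07, 9.42 and 9.36 with Tie2-Cre, against 10.32, 10.42 and 10.50 without Cre. Txnrd1, thioredoxin reductase, fell by 0.55 on the log2 scale (SE 0.066, adjusted p 0.00153) and Gss, glutathione synthetase, by 0.45 (SE 0.085, adjusted p 0.0116). All 4 held with any 1 mouse left out. Not called were the subunits of the enzyme that starts glutathione synthesis, Gclc (-0.11, adjusted p 0.392) and Gclm (-0.24, adjusted p 0.101), and Nfe2l2, which encodes NRF2 (-0.18, adjusted p 0.17). The remaining calls of the list were Cth, which makes cysteine from cystathionine (-0.53, adjusted p 0.0477), and Ggt5, a glutathione-cleaving enzyme (0.26, adjusted p 0.0417), of which Ggt5 lost its call without any 1 mouse and Cth with 5 of the 6.

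Of 12 glutamine, glutamate and aspartate enzymes, 4 were lower and 0 higher (33.3%, against 12.0% of all genes), with a median change of -0.10. Their median signal was 9.92, and 21.8% of all genes with a mean log2 of at least 8 were called. Gfpt2, which uses glutamine to start hexosamine synthesis, had 9.45, 9.57 and 8.84 with Tie2-Cre, against 10.99, 11.10 and 10.88 without Cre. All Tie2-Cre arrays were more than 1 log2 unit lower, with mouse 4 lowest, and the change was -1.70 (SE 0.176, adjusted p 0.000846), 3.25-fold lower. Glul, glutamine synthetase, had 9.76, 9.83 and 9.37 with Tie2-Cre, against 10.59, 10.56 and 10.54 without Cre, and fell by 0.92 on the log2 scale (SE 0.119, adjusted p 0.0022). Ppat, which starts purine synthesis (-0.33, adjusted p 0.0143), and Gfpt1 (-0.31, adjusted p 0.0176) fell less. The count was 2 without no Cre mouse 7 or 10, when both of these were lost.

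Arginine, citrulline and polyamine enzymes gave 3 higher and 1 lower gene among 16 (25%, against 12.0% of all genes), with a median change of -0.0015. Their median signal was 8.26, and 21.8% of all genes with a mean log2 of at least 8 were called. Nos2, inducible nitric oxide synthase, which makes nitric oxide from arginine, changed by -3.06 (SE 0.216), with 7.79, 7.80 and 6.96 with Tie2-Cre against 10.52, 10.45 and 10.75 without Cre. Gamt, the last enzyme of creatine synthesis, had 8.73, 8.91 and 8.70 with Tie2-Cre, against 7.61, 7.78 and 7.50 without Cre. It rose by 1.15 (SE 0.096, adjusted p 0.000305), in the same arrays in which the creatine carrier Slc6a8 was 0.25 higher. Gatm, an earlier enzyme of creatine synthesis, went the other way but was not called (-0.43, adjusted p 0.0695). All its Tie2-Cre arrays were below all no Cre arrays. Ddah2, which breaks down methylarginines that inhibit nitric oxide synthases, rose by 1.02 (SE 0.105, adjusted p 0.000821) and Odc1, the first enzyme of polyamine synthesis, by 0.68 (SE 0.079, adjusted p 0.00137). Arg1 and Arg2, the arginases, were not called (-0.06, adjusted p 0.711, and 0.01, adjusted p 0.963).

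The ATF4 and amino acid response list had 2 higher and 3 lower genes among 24 (20.8%, against 12.0% of all genes) and a median change of -0.01. The median signal of the list was 8.76, and 20.8% is near the 21.8% called among all genes with a mean log2 of at least 8. Atf4 itself rose by 0.31 (SE 0.071, adjusted p 0.0287), a call kept with only 1 of the mice left out, and Mthfd2, a mitochondrial folate enzyme, by 0.56 (SE 0.104, adjusted p 0.0113), kept with all. Ddit4, an inhibitor of mTORC1, fell by 0.79 on the log2 scale (SE 0.105, adjusted p 0.00253), Cth as given above, and Shmt2, which makes glycine from serine in mitochondria, by 0.29 (SE 0.075, adjusted p 0.0453, lost without any 1 mouse). With mouse 3, 6, 7 or 10 left out the list had 1 higher and 1 lower gene. Of 35 genes of mTORC1 and amino acid sensing, 0 were higher and 2 lower (5.71%, against 12.0% of all genes), with a median change of 0.01. The 2 were Rragb (-0.43, adjusted p 0.0189) and Rragd (-0.26, adjusted p 0.0377), both Rag GTPases. Rragb is X-linked, and its mean signal of 5.40 was under the 5.62 that a Y-linked gene reached in an array without Cre. Leaving out mouse 3 or 10 ended the Rragb call, and leaving out any 1 mouse ended the Rragd call. Of 18 cytosolic tRNA synthetases, 1 was higher and 2 lower (16.7%), with a median change of -0.14. The share called was 12.0% of all genes and 21.8% of those with a mean log2 of at least 8. Called were Yars for tyrosine (0.37, adjusted p 0.00901), Rars for arginine (-0.53, adjusted p 0.00611) and Gars for glycine (-0.32, adjusted p 0.015). Of these only Gars lost its call, when mouse 3, 6, 7 or 10 was left out.

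Of 12 branched-chain and tryptophan enzymes, 1 was higher and 1 lower (16.7%, against 12.0% of all genes), with a median change of 0.02. Bcat1, the cytosolic transaminase of leucine, isoleucine and valine, had 7.78, 7.88 and 7.94 with Tie2-Cre, against 8.43, 8.59 and 8.59 without Cre, a fall of 0.67 on the log2 scale (SE 0.079, adjusted p 0.00147). Its mitochondrial counterpart Bcat2 rose by 0.28 (SE 0.070, adjusted p 0.0359), kept only without Tie2-Cre mouse 1. Of 22 other amino acid and peptide carriers, 1 was higher and 2 lower (13.6%, near the 12.0% of all genes), with a median change of 0.10. Slc15a3, a lysosomal carrier of histidine and small peptides, had 8.10, 8.26 and 7.41 with Tie2-Cre, against 5.87, 6.14 and 6.19 without Cre. It rose by 1.85 (SE 0.207, adjusted p 0.00114), the largest change among the called genes of the transporter set and the 8 lists after Nos2. Slc25a13, the mitochondrial aspartate-glutamate carrier citrin, fell by 0.85 on the log2 scale (SE 0.103, adjusted p 0.00161), and Sfxn1, the mitochondrial serine carrier, by 0.33 (SE 0.088, adjusted p 0.0476, kept only without no Cre mouse 10).

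**Figure D4:**
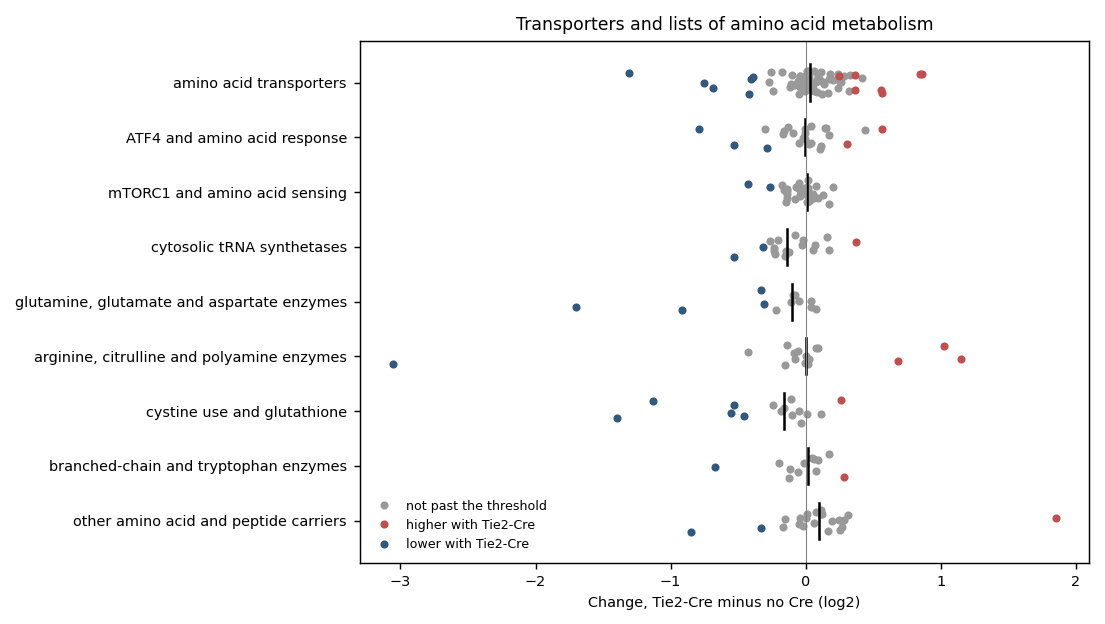
Change (log2, x axis) of the 64 amino acid transporter genes and of each gene in 8 lists of amino acid metabolism, with red points called higher, blue called lower and grey not called; black bars are list medians. The medians run from -0.16 (cystine use and glutathione) to 0.10 (other carriers), and the points farthest out are Nos2 at -3.06 and Slc15a3 at 1.85.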

How the data were processed

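RNA of cells from 6 mice (3 per group, 1 array each) was measured on Affymetrix Mouse Gene 2.0 ST arrays. The deposited values are linear intensities. Per the labels, the authors computed them by RMA, and the submitters' processing notes name Affymetrix Expression Console without a version. RMA corrects background and quantile-normalizes, which fixes each array's distribution. Detection calls were not part of the table, and background makes the change of a dim gene look smaller. The log2 of the deposited intensities was taken, with no further scaling.

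The array annotation gave 1 gene symbol for 23521 of the 41345 probe sets, several symbols for 1814 and no entry for 16010. The brightest probe set per symbol was kept, which set 1341 aside and left 22180 genes, of which 21994 matched mouse RefSeq by identifier. All 64 transporter genes were found there under the same symbol.

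Groups were compared by limma 3.58.1 (lmFit and eBayes, two-sided) in R 4.3.3, with data.table (version 1.17.8) for reading. Motifs and tables were handled in Python 3.11.15 with pandas 2.3.3, the permutation test in scipy 1.17.1 and the plots in matplotlib 3.10.9. The pipeline was tested on simulated data. The number of arrays limits the precision. P-values measure the spread between mice of a group. Mouse numbers are not shared, so no mice were paired.

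Named were all called transporter genes, 7 chosen genes (Slc3a2, Slc7a5, Slc7a11, Slc1a5, Slc38a2, Slc7a1 and Slc7a2), the 6 brightest, the 6 next beyond the threshold, up to 4 called genes per direction of each metabolic list, Pfn1, Xist, Eif2s3y, and the lowest and highest change of each marker list; others were named after their values were seen. The transporter genes, lists and tests were chosen with earlier results of these data known. Alternatives are given with the closing observations.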

Additional observations from a re-analysis of the deposited data

How the results depend on the processing

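Against 7 higher and 6 lower transporter genes, and 1061 higher and 1591 lower genes in all, the counts moved by over 1.5 times under 3 settings and with some mice left out. With probe sets of no or several symbols added there were 2 higher transporter genes, and 609 higher and 899 lower genes in all. With the macrophage markers as a covariate, which itself parts the groups, these were 1 higher and 1 lower transporter gene, and 258 higher and 411 lower genes. An unadjusted p under 0.05 with a 1.5-fold change gave 2 higher and 3 lower, and 424 higher and 551 lower. Leaving out 1 mouse gave 2 to 5 higher transporter genes (6 lower each time), and 634 to 903 higher and 910 to 1253 lower genes. The cause of these shifts was not tested. Slc7a1, not called, turned to -0.14 with the covariate and to -0.064 without Tie2-Cre mouse 4 (0.22 at most without another mouse), and Slc7a5, not called, to -0.028 with the covariate. Array weights, a minimum mean of 5, quantile normalization again, centring, leaving out the dimmest 33.3% of genes, the mean of probe sets, trend with robust eBayes and autosomal genes alone gave 7 to 10 higher and 5 or 6 lower transporter genes. Over all settings the glutathione list had 2 to 7 lower genes and the other carriers 1 to 5 higher. No paired analysis was possible because the groups share no mouse number.

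With 3 arrays a group and no detection calls, small changes of dim genes can go unseen, and sex differs with genotype. Cell types were not counted.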

Other observations

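Tie2-Cre mouse 4 was the highest array for many genes of the amino acid response. Of the 24 measured genes of that list, 12 (50%) were highest of all 6 arrays in this mouse, against 18.4% of all genes: Atf4, Asns, Psat1, Phgdh, Mthfd2, Aldh18a1, Chac1, Ddit3, Trib3, Atf3, Atf5 and Nupr1. For some the lead was slight. Aldh18a1 had 9.772 against 9.771 in Tie2-Cre mouse 3, Ddit3 8.91 against 8.90 in mouse 3, and Chac1 7.95 against 7.89 in mouse 1. The leads of Phgdh and Psat1 were wider. Phgdh, the first enzyme of serine synthesis, had 8.01, 7.94 and 8.84 in Tie2-Cre mice 1, 3 and 4, against 7.84, 7.90 and 7.75 in no Cre mice 6, 7 and 10. Psat1, the next enzyme of that pathway, had 8.93, 8.85 and 9.30 with Tie2-Cre, against values between 8.97 and 9.04 without Cre. Both genes were picked after their values were seen.

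The same mouse also read highest for some markers of other cells. Of 10 pericyte and smooth muscle markers 5 (50%) were highest in it, against 18.4% of all genes: Cspg4, Acta2, Tagln, Myh11 and Cnn1. Of 15 endothelial markers 3 (20%), among them Flt1, were highest in it, which is near the share of all genes. Each no Cre array also had 3 of these endothelial markers highest. Cnn1, a smooth muscle calponin, had 10.08, 10.14 and 11.63 in Tie2-Cre mice 1, 3 and 4, and Map2, a neuronal marker, 7.55, 7.58 and 9.52. The part of these cells in the other values of mouse 4 was not tested.

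Of the 21 brighter transporter genes, 7 (33.3%) were highest in mouse 4, against 16.5% of all genes as bright: Slc1a4, Slc1a6, Slc38a7, Slc3a2, Slc6a6, Slc7a1 and Slc7a5. Over all 64 transporter genes the count was 15 (23.4%, against 18.4% of all genes) for mouse 4 and 18 (28.1%, against 17.0%) for mouse 1. Mouse 4 was the lowest of the 6 arrays for Slc7a11 and the lowest Tie2-Cre mouse for Slc7a2, Gfpt2, Glul and Slc15a3. A single mouse has no replicate, and these values are given as a description.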
